A study of Mus musculus with 28 samples.

Results

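The H3K27ac landscape of resting macrophages was described from the 3 vehicle libraries of a chromatin immunoprecipitation sequencing (ChIP-seq) study, out of 28 samples in the series. The members were chosen by their label alone, and the 63313 deposited H3K27ac peaks were then ranked within them by mean CPM (the count of a peak for every 1000000 counts of its library in peaks) and by CPM per kb of peak length. Bone marrow came from C57BL/6 males, 8 to 10 weeks old, and was differentiated for 5 days with L-cell conditioned medium. Each other H3K27ac group held 3 libraries: 500 nM corticosterone (Cort, the main glucocorticoid hormone in rodents), 100 nM dexamethasone (Dex, a glucocorticoid drug), or 10 ng/ml of the STAT6-activating cytokine interleukin 4 (IL4). These treatments lasted 24 h, and the vehicle labels state no time. All groups shared strain, sex, age and culture, and no label says whether replicates came from separate mice, so every spread and p-value below covers these libraries alone. The remaining 16 samples are 15 glucocorticoid receptor (GR) libraries, of which the peak positions alone were used, and 1 input library that was not analysed here.

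Acetylation of histone H3 at lysine 27 marks active promoters and enhancers, and genes that define a cell type often lie in long, heavily acetylated domains. In macrophages the lineage is set by the ETS-family factor PU.1 (gene Spi1) together with C/EBP, IRF and MITF-family factors, and survival depends on the receptor Csf1r. A peak shows acetylation, not transcription, and the gene named with a peak is the one it overlaps or lies nearest to.

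The sequences below are the 200 bases before the start of example genes, from RefSeq on GRCm38.p6, the assembly called mm10. They are written 5′ to 3′ on the gene's strand. C1qc and Rhog lie in the 100 peaks with the highest mean CPM, and capitals mark the PU.1 letters GAGGAAGT or their reverse complement ACTTCCTC. Isg15, Ifit1, Ifit3 and Rsad2 belong to the interferon response, whose acetylation set vehicle replicate 2 apart, and capitals mark the interferon regulatory factor (IRF) letters, which are GAAA, any 2 bases and GAAA again, or TTTC, any 2 bases and TTTC, with overlapping matches joined. Each window printed here holds a match to its letters, so the windows are examples and do not give the share of their sets. Among the promoters searched below, the PU.1 letters occurred in 7 of 84 that start in a top 100 peak. The IRF letters occurred in 10 of 23 promoters of interferon-list genes. The windows are chr4:136892915-136893114 (C1qc, minus strand), chr7:102250119-102250318 (Rhog, minus), chr4:156200819-156201018 (Isg15, minus), chr19:34640689-34640888 (Ifit1, plus), chr19:34583329-34583528 (Ifit3, plus) and chr12:26456453-26456652 (Rsad2, minus).
C1qc: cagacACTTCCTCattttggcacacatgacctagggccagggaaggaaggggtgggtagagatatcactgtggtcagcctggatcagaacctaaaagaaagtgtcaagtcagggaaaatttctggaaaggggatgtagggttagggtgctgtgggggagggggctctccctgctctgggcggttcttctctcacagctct
Rhog: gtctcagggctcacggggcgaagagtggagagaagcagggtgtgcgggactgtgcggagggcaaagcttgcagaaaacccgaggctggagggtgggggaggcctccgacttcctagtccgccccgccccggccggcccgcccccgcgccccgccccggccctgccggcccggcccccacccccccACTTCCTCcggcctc
Isg15: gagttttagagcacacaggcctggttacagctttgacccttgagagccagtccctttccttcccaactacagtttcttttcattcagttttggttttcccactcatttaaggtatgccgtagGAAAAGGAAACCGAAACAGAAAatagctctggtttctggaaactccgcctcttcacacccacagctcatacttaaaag
Ifit1: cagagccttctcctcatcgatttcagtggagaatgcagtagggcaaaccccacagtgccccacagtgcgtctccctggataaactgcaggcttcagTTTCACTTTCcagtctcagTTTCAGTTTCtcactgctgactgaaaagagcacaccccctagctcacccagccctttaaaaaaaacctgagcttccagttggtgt
Ifit3: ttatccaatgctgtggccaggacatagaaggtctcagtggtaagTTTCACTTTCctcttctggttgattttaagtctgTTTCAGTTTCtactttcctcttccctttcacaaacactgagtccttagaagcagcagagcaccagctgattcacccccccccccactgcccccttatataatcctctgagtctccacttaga
Rsad2: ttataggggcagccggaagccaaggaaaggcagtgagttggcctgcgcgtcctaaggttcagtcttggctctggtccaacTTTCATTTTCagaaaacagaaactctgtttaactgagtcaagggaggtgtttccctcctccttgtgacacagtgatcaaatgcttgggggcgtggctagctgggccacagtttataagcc

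The vehicle libraries held 7451304, 12666689 and 15695771 counts in peaks for replicates 1, 2 and 3, within the range of 6829787 to 15695771 over the 12 H3K27ac libraries. Replicate 1 was therefore counted at the lowest depth of the 3. Pearson's correlation of log2 CPM between replicates over all peaks was 0.952 to 0.962, a description across peaks that share their libraries. Replicates carrying the same number deviated together across groups, so blocked values stand beside the comparisons with treatment. Of 15 defining macrophage markers 13 had a peak assigned to them, with a median of 191 CPM for the highest peak, against 20.5 CPM over the 13717 named genes with a peak. The highest were Ctss (484 ± 25.5 CPM), Spi1 (480 ± 36.6 CPM) and Tyrobp (472 ± 10.2 CPM), the adaptor of many myeloid receptors (SD, n = 3 libraries here and below). Csf1r lies wholly within the peak that the assignment rule gave to Mir6983, at 572 ± 68.8 CPM, and the start of Cd68 lies in a peak given to Mir1934, at 242 ± 10.8 CPM. Markers of other cells were mostly absent or low. Of 8 fibroblast markers 7 had no peak (Col1a1, Col1a2, Col3a1, Pdgfra, Dcn, Lum and Thy1), and the other had 30.4 CPM. Cd79b, Pax5 and Ebf1 of B cells and Cd3e and Cd8a of T cells had none either. A peak was present for 6 of 8 T and NK markers, at up to 26.4 CPM, and for 5 of 7 hepatocyte genes, at up to 31.7 CPM. All 7 dendritic markers had a peak, the highest at 105 CPM. The 7 neutrophil markers with a peak had a median of 3.32 CPM, led by Csf3r at 55.8 CPM, and none of 7 muscle genes had a peak. Exceptions above 100 CPM were Ctsk (205 CPM) and Nfatc1 (139 CPM) of osteoclasts, which arise from the same lineage, Ms4a1 of B cells (106 CPM), Tcf4 of plasmacytoid dendritic cells (105 CPM) and a peak 18.8 kb from Dppa3 (368 CPM).

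Acetylation was concentrated in a small share of peaks. The 633 peaks that make up the top 1% by mean CPM held 17.2 ± 0.463% of all counts in peaks while covering 8.12% of the summed peak length. The share was 16.8%, 17.7% and 17.2% in replicates 1, 2 and 3. The top 10% held 59.9 ± 1.23%, and the 31656 lowest peaks held 4.61 ± 0.473%. The median peak had 3.79 CPM, against 1359 CPM for the highest. The ranking gave no gap at its thresholds, since the peak at rank 100 and the next below had 368.2 and 368.0 CPM, and both the peak at rank 1000 and the next had 136.9 CPM.

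**Figure D1:**
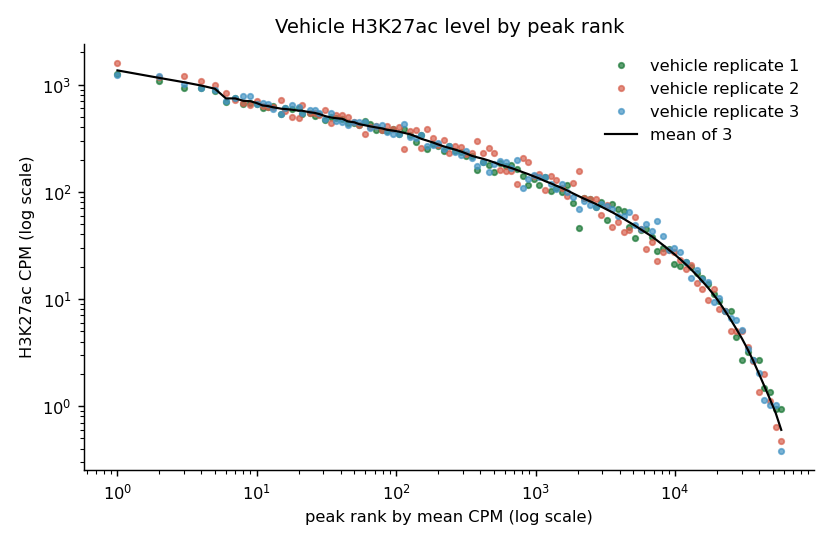
H3K27ac CPM (log scale) of vehicle peaks against their rank by mean CPM (log scale), at ranks spaced evenly on the log axis. Points are the 3 replicates and the line is their mean. The curve falls from 1359 CPM at the first rank to 137 CPM at rank 1000 without a step.

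The highest peak of the genome was a domain of 56.4 kb at chr11:86574604-86631011. It spans Mir21a, the gene of microRNA 21a, at the locus of Vmp1, a gene of autophagosome formation. It had 1256, 1581 and 1241 CPM in replicates 1, 2 and 3, so that replicate 2 stood above the others, and a mean of 1359 ± 192 CPM. The mature microRNAs of 3 loci with strong peaks are shown with their seed (bases 2 to 8) in capitals, from RefSeq on GRCm38.p6: mmu-miR-21a-5p at chr11:86584120-86584141 (minus strand), mmu-miR-22-3p at chr11:75463772-75463793 (plus) and mmu-miR-223-3p at chrX:96242884-96242905 (plus). No seed is shared among them.
mmu-miR-21a-5p: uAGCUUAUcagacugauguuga
mmu-miR-22-3p: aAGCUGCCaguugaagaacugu
mmu-miR-223-3p: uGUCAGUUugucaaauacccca

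The peak over Mir22 had rank 121 at 347 CPM and that over Mir223 had rank 370 at 211 CPM. Of the microRNA genes with a mature sequence in the table used, 3 lay in the top 100 peaks and 26 in the top 1000, and Mir6983 lay in the peak of rank 20. Since a peak covers whole loci, acetylation there cannot be told apart from that of the host or neighbouring genes.

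The next ranks held Plekho2, Pik3ap1 and Mcl1. The peak of Plekho2, which encodes a pleckstrin homology domain protein (chr9:65527933-65581265), had 1078, 1187 and 1203 CPM in replicates 1, 2 and 3. The peak of Pik3ap1, an adaptor that links receptors to phosphoinositide 3-kinase (chr19:41312015-41348847), had 934, 1204 and 1024 CPM. Mcl1, an anti-apoptotic BCL2-family gene (chr3:95642159-95677801), had 925, 1080 and 937 CPM. The 3 ranges overlap, and replicates 1 and 2 of each gene lie further apart than counting error alone, which is near 1% at this level. Receptors and adaptors among the first 30 included Lrp1, an endocytic receptor (744 ± 16.6 CPM), Fyb, an adhesion adaptor (673 ± 25.6 CPM), Sh3bp2, an adaptor of immune receptors (632 ± 24.4 CPM), P2ry6, a receptor for UDP (616 ± 19.7 CPM), Sirpa, the receptor for the "do not eat me" ligand CD47 (532 ± 9.07 CPM), and Pik3r5, a regulatory subunit of phosphoinositide 3-kinase gamma (528 ± 57.6 CPM). Cytoskeletal and signalling genes among the first 30 were Frmd4b (744 ± 80.4 CPM), Tns3, which encodes tensin 3 (706 ± 74.1 CPM), and Pstpip1 (575 ± 45.1 CPM).

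Regulators of transcription and RNA formed another group of the first 30. Zeb2, a zinc finger factor needed for macrophage identity (chr2:45076976-45119600), had 876, 987 and 885 CPM in replicates 1, 2 and 3, a mean of 916 ± 61.2 CPM. Klf6 had 566 ± 39.3 CPM and Zfp36, whose product tristetraprolin destabilises inflammatory transcripts, 557 ± 51.3 CPM. The long non-coding RNA genes Lncpint and Neat1 had 596 ± 111 and 593 ± 19.5 CPM. Relative to its mean, Lncpint varied most among the 30 peaks (CV 18.6%), with 530, 724 and 535 CPM, while Neat1 was level at 603, 570 and 605 CPM. Lysosomal and lipid genes were Ctsd (cathepsin D, 701 ± 65.6 CPM), Psap (prosaposin, 640 ± 36.0 CPM), Fdft1 (squalene synthase, 591 ± 46.4 CPM) and Nceh1 (a cholesteryl ester hydrolase, 547 ± 75.9 CPM).

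**Figure D2:**
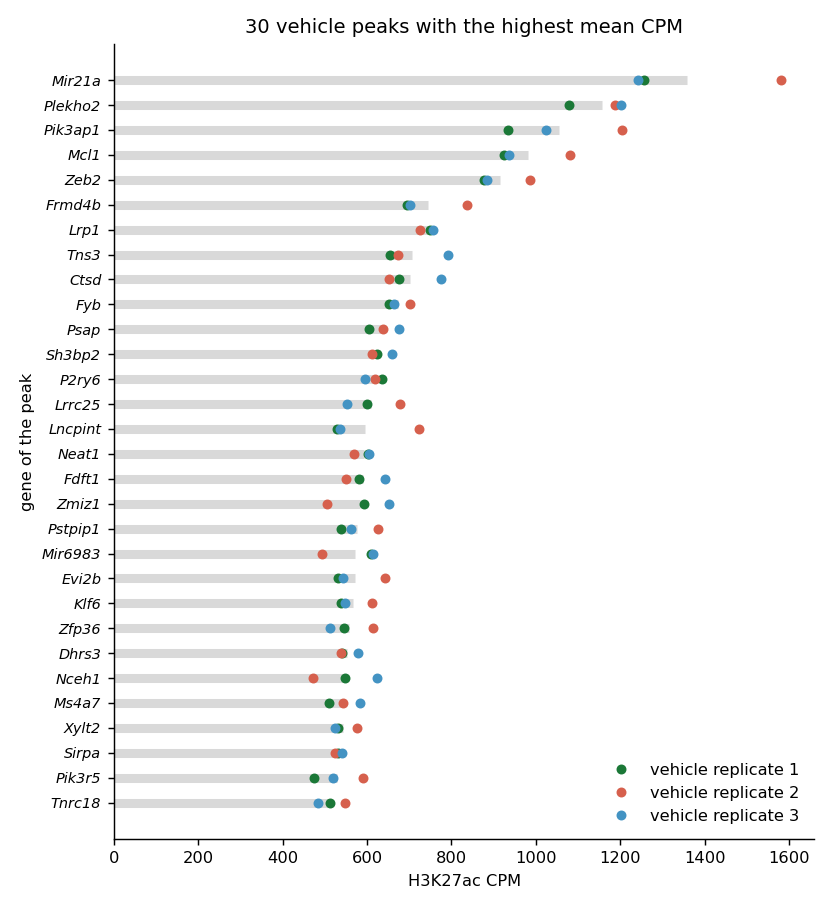
H3K27ac CPM of the 30 vehicle peaks with the highest mean, 1 per gene. Points are the 3 replicates and grey bars run to their mean. Mir21a leads at 1359 CPM, and Sirpa (524 to 542 CPM) is among the peaks whose replicates lie closest together.

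The top 100 peaks were long and lay in genes. Their median length was 18715 bp, against 1013 bp over all peaks, and 99 of them were 10 kb or longer. Of the 100, 89 overlapped a gene and 68 lay within 1 kb of a gene end, against 66.6% and 19.6% of all peaks. A long peak reaches a gene end more easily than a short one, and mean CPM followed length across all peaks (Spearman's rho 0.934). By position, 73 of the top 100 overlapped a peak of the GR table, against 6.18% of all peaks. A long peak also meets a GR peak more easily than a short one, and the part of length in this contrast was not tested. The GR table covers libraries of all 4 groups, steroid-treated ones included, so it does not describe resting cells alone. The deposited column named filtered, whose meaning is not stated, was FALSE for all 519 peaks of 10 kb or more. Restricting the ranking to its TRUE peaks left 1 of the top 100 and 41 GR overlaps in the 100 then highest.

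Joining neighbouring peaks into regions, a step added after the data were seen, gave an order that depended on the distance. Within 10 kb the 63313 peaks formed 24420 regions, led by Zeb2 with 1344, 1477 and 1431 CPM in replicates 1, 2 and 3 (47 peaks over 158 kb). The Mir21a region (1409 ± 193 CPM), the region of Lrp1 and Stat6, which encodes the IL4-activated factor (1403 ± 21.2 CPM), and Pik3ap1 (1362 ± 148 CPM) followed, and the order of these 4 lies within the spread of the replicates. Within 15 kb there were 19355 regions, and Zeb2 (1612 ± 109 CPM) came after the cluster of cytokine receptor genes Ifnar2, Il10rb, Ifnar1 and Ifngr2 (1854 ± 76.4 CPM). Of the 30 highest regions, 18 held a top 100 peak at 10 kb and 23 did at 15 kb.

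Ranking by CPM per kb gave a different list, and 9 of its first 100 peaks were also in the top 100 by CPM. Of the 100, 53 were shorter than 1 kb, and in all 53 replicate 1 was highest and replicate 3 lowest. Of these, 31 lay within 34.4 kb at chr9:3000524-3034969 and 5 within 3.78 kb at chr11:3100367-3104150. None of the 53 lay within 1 kb of a gene end and 41 (77.4%) overlapped a GR peak, against 19.6% and 6.18% of all peaks. These 53 peaks were 208 to 895 bp long, with a median coefficient of variation between replicates of 57.8%. The input library was not used, so the signal of these 53 peaks without immunoprecipitation was not read. No regions were excluded before ranking, and peak sequences were not read. Whether the signal at these 53 peaks, or their overlap with GR peaks, depends on the antibody was therefore not tested. Their summed level in vehicle was 1799, 884 and 576 CPM in replicates 1, 2 and 3. In treated libraries replicate 1 was also highest, with 1841, 828 and 834 CPM in Cort, 1695, 919 and 646 CPM in Dex and 1652, 893 and 584 CPM in IL4. The highest of all by this measure, at chr12:67059143-67059957 in Mdga2, had 119, 65.7 and 45.6 CPM per kb in replicates 1, 2 and 3, a mean of 76.7 ± 37.9. The order of the replicates at these 53 peaks is the reverse of the order of depth in vehicle, and the part of depth in it was not tested.

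The 47 peaks of 1 kb or more showed another pattern, with replicate 2 highest in 35 and a median spread (coefficient of variation, CV) of 8.24%. The highest was Tnrc18 at 47.0 ± 2.87 CPM per kb. A peak 28.2 kb from Cd69 had 44.7 ± 5.89 and a peak 27.8 kb from the chemokine receptor gene Ccr1 had 43.2 ± 2.82 CPM per kb. The kindlin gene Fermt3, which activates leukocyte integrins, had 41.1 ± 2.90 CPM per kb, Rhog, a small GTPase, 40.2 ± 4.64, Atp6v0c, a subunit of the lysosomal proton pump, 38.8 ± 1.04, and Spi1 37.1 ± 2.82 CPM per kb. With the ranking restricted to peaks of at least 1 kb, 14 of the top 100 were shared with the ranking by CPM and 54 lay within 1 kb of a gene end, against 9 and 28 without that limit.

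**Figure D3:**
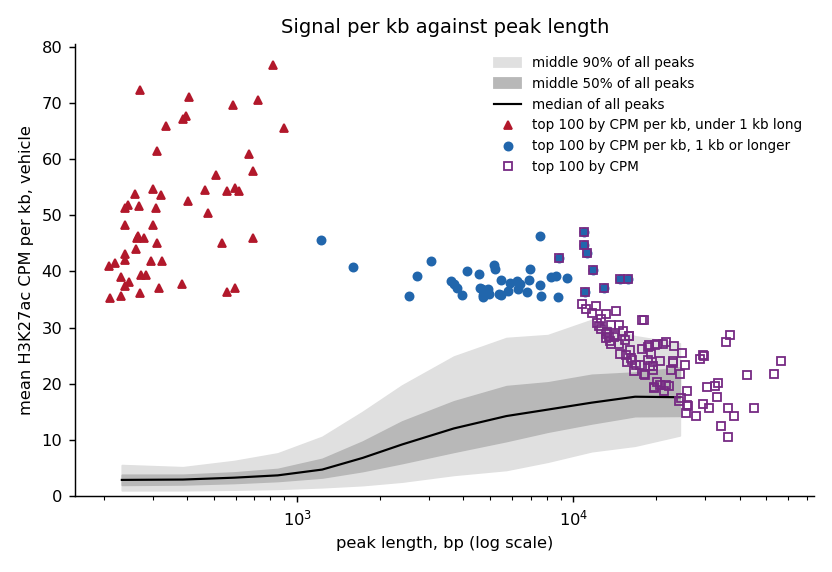
Mean vehicle CPM per kb against peak length (log scale). Grey bands and the black line give all 63313 peaks by length class, triangles and circles the top 100 by CPM per kb, and open squares the top 100 by CPM. The 53 triangles form a group under 1 kb that stands far above the band of other short peaks, while the top 100 by CPM are long.

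Genes of macrophage function carried high peaks as groups, read from the highest peak assigned to each gene. Of 24 lineage transcription factors, all 24 had a peak and 12 had one in the top 1000, with a list median of 139 CPM. Over all named genes with a peak, the median was 20.5 CPM and 6.09% had a top 1000 peak. After Zeb2 and Spi1 came Mitf (449 ± 18.7 CPM), which drives lysosomal genes, and Irf5 (374 ± 9.74 CPM), a regulator of inflammatory cytokines. Lower down were Cebpa (44.5 ± 12.9 CPM) and Klf4 (26.1 ± 3.69 CPM). Of 31 actin regulators 19 had a top 1000 peak (median 180 CPM), led by the bundling protein gene Lcp1 (425 ± 34.8 CPM), Actb (402 ± 47.3 CPM), Myo1f (395 ± 18.0 CPM) and Pfn1, profilin 1 (351 ± 33.0 CPM). Of 29 lysosomal genes 15 did (median 138 CPM), with Lipa, the lysosomal acid lipase, at 494 ± 91.5 CPM after Ctsd and Psap. Of 41 surface receptors and adaptors with a peak 18 did (median 125 CPM). Examples after Sirpa were Cd84 (494 ± 49.5 CPM), a receptor of the SLAM family, and a peak 27.8 kb from Ccr1 (486 ± 31.7 CPM).

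Among secreted products the median was 84.4 CPM, and 7 of 22 genes with a peak had one in the top 1000. The galectin gene Lgals3 had 427 ± 63.9 CPM, C1qc of the complement C1q cluster 407 ± 57.1 CPM, and Lyz2, lysozyme, 289 ± 16.9 CPM. C1qa and Fn1 had no peak assigned, nor had Cxcl3, Ccl3 and Ccl22 of the chemokines. The C1qc peak covers the start of C1qb too. Each peak was given to a single gene, so a gene without an assigned peak can still lie in a peak given to a neighbour. Immediate-early regulators had a median of 92.8 CPM, with Junb (424 ± 32.0 CPM) and Dusp1 (249 ± 8.06 CPM), a phosphatase of MAP kinases, behind Klf6 and Zfp36. Inflammatory genes were lower at 62.9 CPM, with 7 of 34 in the top 1000, and were led by Irak3 (388 ± 31.9 CPM), a brake on Toll-like receptor signalling, ahead of Nlrp3 (222 ± 12.9 CPM), Tnfaip3 (217 ± 16.5 CPM), the NF-kB inhibitor A20, and Nfkbia (208 ± 25.6 CPM). The order of the last 3 lies within their spread. Tnf had 101 ± 13.2 CPM.

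Lists of genes known to be induced by glucocorticoids or IL4 had medians near that of all named genes, below the lists above. The glucocorticoid-induced list had a median of 24.0 CPM, with Fkbp5 at 27.7 ± 7.84, Cd163 at 23.0 ± 4.67 and Klf9 at 14.5 ± 1.51 CPM, though 5 of its 20 genes (Zfp36, Klf13, Dusp1, Cebpd and Sgk1) had a top 1000 peak, against 6.09% of all named genes. The IL4-induced list had a median of 18.7 CPM, with Arg1 at 50.6 ± 13.2 and Mrc1 at 92.9 ± 7.09 CPM. Its 2 genes with a top 1000 peak were Pdcd1lg2, the gene of PD-L2, with a peak 9.65 kb away at 325 ± 18.6 CPM, and the receptor gene Il4ra at 173 CPM. Antigen presentation genes had a median of 23.7 CPM, led by B2m (184 ± 14.2 CPM), while H2-Ab1 of MHC class II had 1.36 ± 0.108 CPM. Ribosomal protein genes (32.0 CPM) and circadian clock genes (47.1 CPM) lay near the middle, and housekeeping genes had 94.4 CPM.

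**Figure D4:**
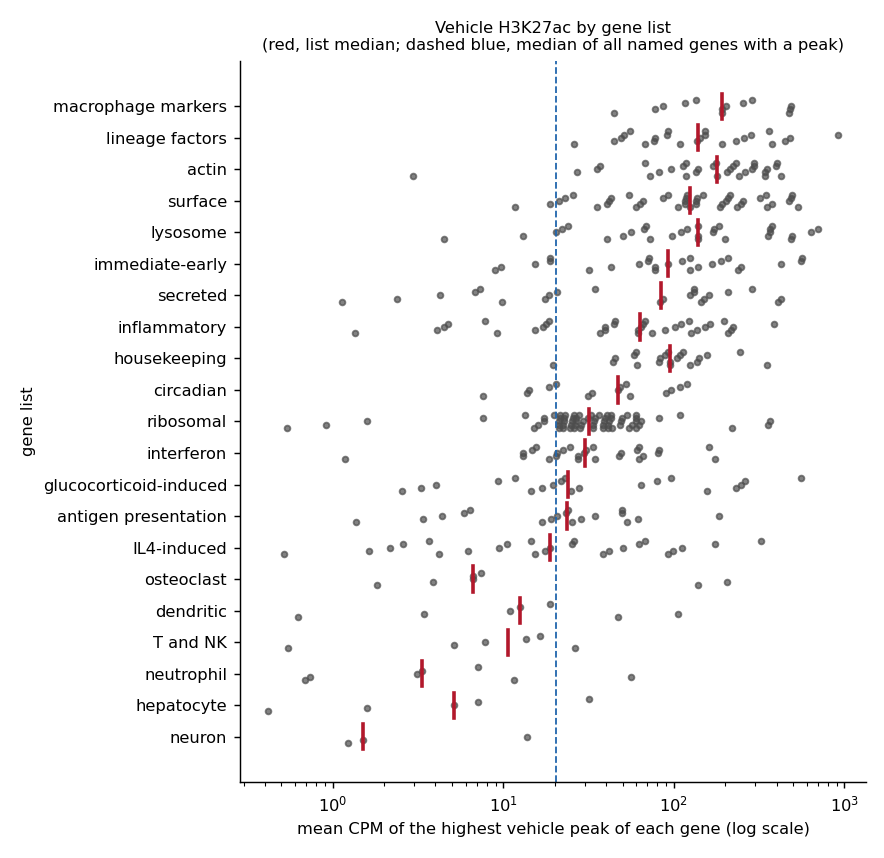
Mean vehicle CPM (log scale) of the highest peak of each gene, by gene list. Points are genes, red lines list medians and the dashed line the median of all named genes with a peak, 20.5 CPM. Lineage, actin, surface and lysosomal genes lie mostly to its right, and marker genes of other cells mostly to its left.

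The median CV over the top 1000 peaks was 7.90%, where counting error alone would give 2.21%, against 22.3% over all peaks, where counting error would give 15.7%. The strongest peaks thus had the lower CV, but a larger ratio of CV to counting error. Without replicate 2 it was 4.05%. The steadiest of the top 1000 was Anxa9 (156.5, 156.9 and 157.7 CPM), and Il6ra, the interleukin 6 receptor, was among the 5 with the lowest CV (179.8, 180.9 and 182.2 CPM). Of the top 100 by mean CPM, 71 were in the top 100 of every replicate, and 128 peaks were in the top 100 of at least 1. Among the 25 most variable of the top 1000, with CV from 25.6% to 52.3%, replicate 2 was highest in 17 and lowest in 8. The widest was H2-T24, a non-classical MHC class I gene, with 263 CPM in replicate 2 against 106 and 124 CPM in replicates 1 and 3. The peak at the start of Rnf213, given to Mir1932, had 212 CPM in replicate 2 against 101 and 106 CPM. A peak 13.0 kb from Fgd2 had 247 against 139 and 126 CPM. Egln2, an oxygen-sensing prolyl hydroxylase, had 230 against 122 and 131 CPM, and Rapgef2 308 against 180 and 166 CPM. Genes lowest in replicate 2 included Id2, with 91.9 CPM against 168 and 193 CPM, and the lysosomal glycoprotein gene Gpnmb, with 251 against 383 and 430 CPM.

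The interferon response set vehicle replicate 2 apart. Of its 26 genes, 24 were highest in that replicate, the exceptions being Ifnar2, a receptor subunit, and Stat2, whose assigned peak had 1.18 CPM and whose start lies in a peak given to Apof. By the highest peak of each gene, the median departure of replicate 2 from the gene's own mean was 0.74 on the log2 scale, the largest in size of the 27 lists with a peak. The list's summed CPM was 1746 in replicate 2, against 941 and 896 in replicates 1 and 3. The median ratio of replicate 2 to the mean of the other two was 2.52, with a range of 0.728 to 10.3, and 20 of 26 genes were over 2. Over all named genes the median ratio was 0.997 and 1.82% were over 2. Zbp1, a sensor of nucleic acids, had 51.5 CPM in replicate 2 against 5.37 and 4.59 CPM in replicates 1 and 3. Mx1, an antiviral GTPase, had 46.9 against 8.72 and 6.63 CPM. Oasl2, of the oligoadenylate synthase family, had 57.1 against 12.1 and 13.4 CPM. In each of these genes replicate 2 stood far above the other replicates, which lay close together. Isg15, a ubiquitin-like modifier, had 88.5 against 28.7 and 30.3 CPM, and Usp18, its protease, 62.8 against 14.9 and 14.2 CPM. At Ifit1, Ifit3 and Rsad2, whose promoters are printed above, replicate 2 was likewise the highest.

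The same replicate number stood out in the treated libraries. Replicate 2 was highest for 24 of 26 interferon genes in each treated group, with a median ratio of 3.33 in Cort, 3.19 in Dex and 2.89 in IL4 libraries. A test of the replicate number in the 9 treated libraries alone, added after the pattern was seen (edgeR's quasi-likelihood F test, group as a covariate, Benjamini-Hochberg adjustment over 57609 peaks), called 25 of the 26 genes, 24 of them highest in replicate 2. The background was high: 28.8% of all tested peaks were called, and 13.4% were called with replicate 2 highest. Oasl2 averaged 73.9 CPM in treated replicate 2 against 8.52 and 8.84 CPM in treated replicates 1 and 3 (edgeR adjusted p = 2.08e-12). Zbp1 averaged 61.4 against 7.07 and 6.26 CPM (edgeR adjusted p = 7.67e-10). Stat2 was the gene that did not pass (edgeR adjusted p = 0.387). Libraries that share a number may come from the same mice or culture, which the labels do not state, so the treated libraries are not shown to be independent of the vehicle ones.

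**Figure D5:**
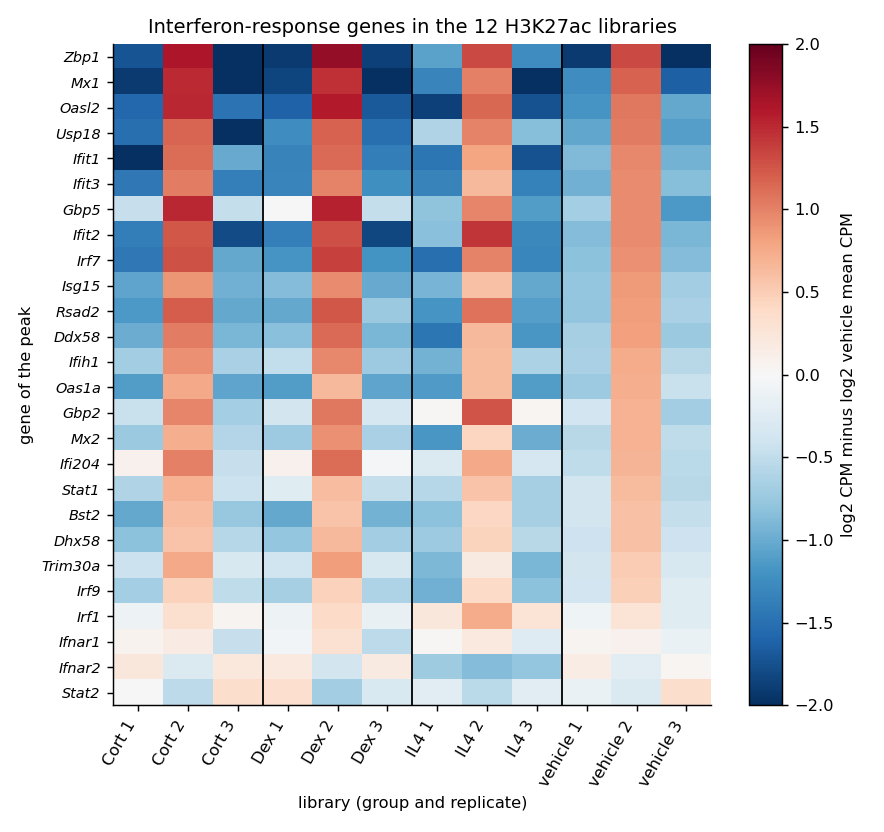
Log2 CPM minus log2 of the vehicle mean CPM for the highest peak of 26 interferon-response genes (rows) in the 12 H3K27ac libraries (columns), with colours saturating at the ends of the scale. Replicate 2 is the highest of the 3 in each of the 4 groups for 24 genes, and Ifnar2 and Stat2 do not follow. The excess is small at some of the 24, such as Ifnar1, with 171 CPM in vehicle replicate 2 against 167 and 146 CPM.

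Other lists moved with the same replicate to a smaller extent. Of 34 inflammatory genes 28 were highest in vehicle replicate 2, with summed levels of 3277 CPM there against 2849 and 2671 CPM in replicates 1 and 3, and 29 were called in the treated libraries, 28 of them highest in replicate 2. Over all named genes 38.7% were highest in vehicle replicate 2, and in the treated libraries 34.6% of those tested were called, 16.7% with replicate 2 highest. Lysosomal genes went another way, with replicate 3 highest for 18 of 29, and summed levels of 5486 CPM in replicate 2 against 5549 and 6038 CPM. In the treated libraries 1 of 21 housekeeping genes was called, against 16 of 24 lineage factors, 26 of 41 surface genes, 19 of 29 lysosomal genes and 17 of 31 actin regulators. The shares from lineage factors to actin regulators were 66.7%, 63.4%, 65.5% and 54.8%, beside 61.4% of the vehicle top 1000 peaks. The part of peak strength in these shares was not tested. Of 31 actin regulators 23 were highest in vehicle replicate 2, at 6444 CPM summed against 5830 and 5951 CPM in replicates 1 and 3, beside 52.3% of all top 1000 peaks. Markers of other cells moved in both directions. The 7 osteoclast markers with a peak, which include Ctsk, summed to 306 CPM in replicate 2 against 380 and 424 CPM. Replicate 2 was highest for 1 of 7 neutrophil markers, which summed to 84.7 CPM there against 87.6 and 74.6 CPM in replicates 1 and 3. It was highest for 1 of 2 B-cell markers, summing to 121 against 97.2 and 108 CPM, and for 3 of 6 T and NK markers, summing to 81.3 against 61.9 and 66.3 CPM. A peak was assigned to 7 of 10 neutrophil, 2 of 6 B-cell and 6 of 8 T and NK markers, and Pax5, Cd3e and Mpo were among those without. The part of these markers in the difference between replicates was not tested. Among the 28069 peaks of at least 5 mean CPM, 460 were over 2 times higher in replicate 2 than the mean of the others and 728 over 2 times lower.

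The IRF letters marked in the promoters above were sought in the 250 bases before each start of a named gene in RefSeq, on both strands. They occurred in 36 of 86 promoters (41.9%) whose start lay in a peak over 2 times higher in replicate 2, in 10 of 23 promoters of 19 interferon-list genes (43.5%), and in 598 of 19904 named promoters (3.00%). The first 2 sets share genes. In the printed windows, Isg15 held 3 matches that overlap, Ifit1 and Ifit3 held 2 each and Rsad2 held 1. The PU.1 letters occurred in 7 of 84 promoters that start in a top 100 peak (8.33%), in 4.32% of those in a top 1000 peak and in 2.28% of all named promoters. Those letters occurred in 8.14% of the replicate 2 set. The AP-1 letters TGANTCA, with N for any base, occurred in 12 of the 86 promoters of the replicate 2 set, in 9.52% of those in a top 100 peak and in 6.27% of all, and CCAAT in 34.9%, 35.7% and 35.2%. The promoter table is not complete, a match is not a binding site, and base composition differed between the sets, with a median GC content of 48.8% in the replicate 2 set and 56.4% in all promoters.

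The strongest resting peaks were then set against each treatment, all sharing the same 3 vehicle libraries. Since the vehicle values also chose the 1000 peaks, the direction of their changes is a description. A peak was called where edgeR's quasi-likelihood F test over 59881 peaks gave a Benjamini-Hochberg adjusted p under 0.05, and blocked values are from the same fit with the replicate number as a term. With Cort 17 of the 1000 were higher and 2 lower, against 1.18% and 0.376% of all tested peaks, and with the block 167 and 76, against 6.44% and 6.13%. With total-count scaling the Cort split was 19 and 6. The Cort count of 19 became 12 without Cort replicate 1, 6 without Cort replicate 3, and 9, 6 and 5 without vehicle replicates 1, 2 and 3. With Dex 34 were higher and 13 lower, against 2.9% and 2.34%, and with the block 185 and 152, against 9.91% and 10.3%. Total-count scaling gave 31 and 34 for Dex. The Dex count of 47 became 24, 82 and 23 without Dex replicates 1, 2 and 3, and 29, 26 and 17 without vehicle replicates 1, 2 and 3. With IL4 135 were higher and 182 lower, against 14.7% and 12.9%, and with the block 270 and 340, against 21.9% and 21.6%. Most of the strongest peaks moved little. The log2 fold change lay within 0.5 of 0 at 93.9% of them with Cort, 91.4% with Dex and 72.8% with IL4. Over all tested peaks the shares were 73.3%, 68.1% and 50.2%. The median CV between vehicle replicates was 7.90% in the top 1000 and 22.3% over all peaks. The part of that spread in the contrast between the shares was not tested.

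Named peaks of these comparisons had every treated library beyond every vehicle library, as their selection required. The peak of Ms4a4a, of the MS4A membrane protein family, had 467, 382 and 280 CPM in Cort and 502, 439 and 434 CPM in Dex libraries, against 149, 149 and 123 CPM in vehicle libraries. Its log2 fold change was 1.47 ± 0.18 with Cort (edgeR adjusted p = 0.000728) and 1.75 ± 0.18 with Dex (edgeR adjusted p = 0.000109), where ± is the standard error. Klf13 had 448, 442 and 540 CPM in Cort libraries against 272, 239 and 273 CPM in vehicle libraries, and Pla2g7, a platelet-activating factor hydrolase, also rose with both steroids, by 0.82 ± 0.10 with Cort and 0.91 ± 0.10 with Dex on the log2 scale. A peak 17.8 kb from Slc18a1, rank 75 in vehicle, had 215, 282 and 234 CPM in Cort and 185, 210 and 214 CPM in Dex libraries, against 365, 376 and 448 CPM in vehicle libraries. Its log2 fold changes were -0.64 ± 0.15 with Cort (edgeR adjusted p = 0.0443) and -0.92 ± 0.15 with Dex (edgeR adjusted p = 0.00307). N4bp1 and Cttnbp2nl were also higher with both steroids, by 0.76 to 0.84 on the log2 scale, and Fat3, an atypical cadherin, was lower with both. Of the peaks lower with Dex, Sptlc2, of sphingolipid synthesis, had 53.8, 80.1 and 56.7 CPM in Dex libraries against 125, 177 and 140 CPM in vehicle libraries. The peak by Acta1 changed by -1.29 ± 0.27 and that of Plekhm1 by -1.08 ± 0.28 on the log2 scale.

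With IL4, Lgals3, the 55th peak in vehicle, had 1025, 1056 and 1042 CPM in IL4 libraries against 449, 355 and 477 CPM in vehicle libraries, a log2 fold change of 1.34 ± 0.15 (edgeR adjusted p = 4.79e-05). Anxa4, of the annexins, rose by 1.47 ± 0.15 on the log2 scale and the peak 7.91 kb from Mthfs by 1.56 ± 0.31, while Niban2 and a peak by Lrp12 both rose by 1.16 ± 0.14. The widest fall among the named peaks was at Fpr1, the receptor for bacterial formyl peptides, with 54.5, 75.0 and 34.5 CPM in IL4 libraries against 303, 428 and 305 CPM in vehicle libraries, a log2 fold change of -2.62 ± 0.49 (edgeR adjusted p = 0.00174). A second peak 1027 bp from Fpr1 changed by -2.55 ± 0.48, Ceacam18 by -2.42 ± 0.37, Spidr by -2.23 ± 0.51 and a peak by Gm36909 by -2.08 ± 0.13. The IL4 and vehicle libraries do not overlap at any of these peaks, as their selection required.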

How the data were processed

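H3K27ac was measured by ChIP-seq in macrophages. The submitters' processing notes list featureCounts, MACS2, SAMtools, Bowtie2 and fastp, and the mouse build mm10, without versions or order. The authors deposited a table of raw counts per peak for 63313 H3K27ac peaks, and how peaks of separate libraries were merged, whether duplicate reads were removed and what the column named filtered means are not given in the sources used here. Columns were matched to samples by name, with C for vehicle, and groups came from the labels. Of the GR table (8394 peaks), positions alone were used.

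CPM was the count per 1000000 of the column total, which assumes equal totals between libraries, and a sum over a longer peak collects more reads. Peaks were given to a RefSeq gene on GRCm38.p6 that overlaps them or lies nearest within 50 kb (61988 peaks, 97.9%), and predicted genes were used where no other was near. The gene table has no strand, so distances are to the nearer gene end. Of 509 list genes 508 were in RefSeq. The text names the 30 highest peaks by each ranking, up to 4 genes per list, list members without a peak, the 5 most variable of the top 1000, and per treatment the 5 highest and 5 lowest called changes with groups that do not overlap. Some of these are summarised, and further genes were named after their values were seen. Members and lists were chosen with earlier results of these data known.

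Treatments were compared with vehicle by edgeR 4.0.16 (R 4.3.3) quasi-likelihood F tests with TMM scaling in a single fit of 12 libraries, with Benjamini-Hochberg adjustment, tested on simulated data. DESeq2 1.42.0, other scalings, filters and a replicate block were alternatives. Residuals of libraries with the same replicate number correlated at 0.373 to 0.813 (18 pairs), against -0.589 to 0.126 for other numbers (36 pairs), so the numbers were taken to pair the libraries, from the data and not from a label. Other steps used Python 3.11.15. A few genes and the results that need them are not reported here.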

Additional observations from a re-analysis of the deposited data

How the results depend on the processing

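Of 91 recomputed main values 64 were within 1.5 times the reported count or within 1 SD of the reported value, among them 49 of the top 100 overlapping GR peaks with filtered TRUE (73 reported) and 21 to 40 peaks near a gene end by CPM per kb without 1 replicate (28 reported). Of 236 recomputed values of 59 named vehicle peaks 231 were within 1.5 times, and 5 fell further without replicate 1: Gm34259 had 10.1 CPM (33.5 with all 3), Acacb 5.14 (9.02), Atrnl1 7.62 (12.1), Cldn34d 19.5 (30.4) and Ank1 12.4 (19.1). Among peaks with filtered TRUE, the top 1% held 8.15% of counts, 22 of the top 100 were shared between the rankings and 41 overlapped a GR peak. With at least 1 kb for the ranking by CPM per kb, 14 peaks were shared and 54 lay near a gene end. Ranked by CPM per kb, 15 of the top 100 were in the top 100 of every replicate. The median CV of the top 1000 ranged from 4.05% to 8.52% when 1 replicate was left out, the lowest without replicate 2. With TMM scaling of all 3 replicates that median was 9.82%. With the replicate block, Cort, Dex and IL4 calls among the top 1000 were 243, 337 and 610. Without the block, requiring also a log2 fold change of 1 or more in size left 1, 4 and 53. With the top 1000 by CPM per kb, Cort and Dex gave 2 and 27. DESeq2 gave 34 for Cort. Leaving out 1 library gave 5 to 19 for Cort, 17 to 82 for Dex and 219 to 281 for IL4. Over all tested peaks, Cort calls were 929, against 7531 with the block, 1912 with DESeq2 and 613 with the fold limit, Dex calls 3138, against 12131 and 1979 (block, fold limit), and IL4 calls 16538, against 26057 with the block. The block ended no call of a named peak. The interferon pattern, examined after the data were seen, held for 24 of 26 genes with TMM scaling, 23 by the sum of each gene's peaks and 18 of 19 by the peak at the start. The causes of these shifts were not tested. Counts are the sole depth measure, reads are not independent molecules, and 3 libraries limit every spread.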
